A study of Mus musculus with 33 samples.

Results

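The genes described here belong to the sebaceous gland, and 8 were listed: Scd3, Elovl3, Acsbg1, Fa2h, Dgat2, Soat1, Cidea and Mc5r. A gene was counted as measured where a probe set, the group of short probes that reads 1 transcript on the array, carried that gene's symbol and no other. This held for 7 of the 8 genes, out of 18193 genes on the array that met the same condition. They had 9 probe sets in all, since Scd3 and Dgat2 had 2 each, and the probe set with the highest mean log2 signal over the arrays stood for its gene. Soat1, which esterifies cholesterol, had no such probe set and was not analysed here.

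The samples were upper-mid back skin of wild-type C57BL/6 mice, with 1 mouse on each of 33 arrays. In the natural second hair cycle 23 mice were taken untreated, at postnatal days P23 and P25 (early anagen, 2 males, then 1 of each sex), P27 (mid anagen, 3 mice), P29 (late anagen, 3 mice) and P34 (1 late anagen mouse), P37 and P39 (early catagen, 3 mice each), P41 (mid catagen, 3 mice) and P44 (telogen, 3 mice). Phases follow the day and the series' design, since the labels of P41, P44 and the depilated mice carry early anagen as well. Anagen is the growth phase of the follicle, catagen its regression and telogen its rest. The other 10 mice were depilated with a mixture of wax and rosin at 7 weeks, when their follicles were at rest, and were taken 3, 5, 8, 12 and 17 days later (2 mice each, with D3 taken as early, D5 as mid and both D8 and D12 as late anagen, and D17 as early catagen). All depilated mice were female and older than any mouse of the natural cycle, so that depilation, sex and age cannot be told apart where the cycles are compared, and comparing female arrays alone removes only sex. Within the natural cycle each phase was taken at its own age, so phase and age cannot be told apart there either. The whole tissue was used, and a change in such bulk RNA can mean fewer cells of a type or less RNA per cell, which cannot be told apart.

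Sebaceous glands sit on the upper part of the hair follicle and release sebum by bursting their lipid-filled cells, the sebocytes, into the hair canal. Sebocytes make fatty acids, lengthen and desaturate them, join them to alcohols as triglycerides, wax esters and cholesterol esters, and store them as droplets until the cell breaks down. The gland stays in place through the hair cycle while the lower follicle grows and regresses. Several of its genes also work in other cells of the skin, among them fat cells, the outer epidermis and myelinating cells.

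The skin carried sebocyte transcripts on every array. Of 15 sebocyte marker genes 13 had a probe set and 12 passed the filter on low signals. Krt79, a keratin of the gland's duct, ranged from 2698 to 15890.3, and Far2, which makes fatty alcohols for wax esters, from 295 to 5431 (signals as scaled by the authors, without unit). Muc1 was under the floor of 34.6 on 28 of 33 arrays. Below this floor, the 25th percentile of all signals, values were set to it. P39 replicate 2 stood apart, with the lowest Krt79 and the lowest Far2, and P44 replicate 1 had less of both (Krt79 7382, Far2 2068) than the other P44 arrays (13082 and 14003, 4601 and 5431). Both arrays are female. P44 replicate 1 also had the highest signal of all arrays for the fat genes Adipoq (19396.9) and Cd36 (9365.6). The same held for the leukocyte genes Ptprc (4133.9) and Lyz2 (23080.9), while Fabp4 of fat and Cpa3 of leukocytes were highest on other arrays. What set these arrays apart was not tested. The brown fat gene Ucp1 was 408 in P23 replicate 1 and at most 59.2 on every other array.

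For 2 of the measured genes, Scd3 and Acsbg1, the reference table (RefSeq, GRCm38.p6) held the sequence upstream of the gene's start, and it is shown here because both genes rose between early and mid catagen and differed at D3 from natural early anagen, Scd3 lower and Acsbg1 higher. Each line gives the 250 bases that precede the start, 5′ to 3′ on the strand of the gene, from chr19:44203038-44203287 (plus strand) for Scd3 and from chr9:54661886-54662135 (minus strand) for Acsbg1. Capitals mark the letters CCAAT or their reverse ATTGG, a motif chosen after the sequences had been read.
Scd3: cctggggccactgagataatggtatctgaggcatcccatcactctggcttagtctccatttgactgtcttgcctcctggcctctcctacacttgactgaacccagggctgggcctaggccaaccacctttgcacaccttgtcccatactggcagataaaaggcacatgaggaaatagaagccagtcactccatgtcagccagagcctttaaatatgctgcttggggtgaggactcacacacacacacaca
Acsbg1: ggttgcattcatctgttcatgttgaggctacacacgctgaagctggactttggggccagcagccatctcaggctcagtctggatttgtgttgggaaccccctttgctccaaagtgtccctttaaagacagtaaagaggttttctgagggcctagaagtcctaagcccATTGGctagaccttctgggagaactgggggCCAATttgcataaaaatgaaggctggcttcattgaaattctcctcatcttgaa
Acsbg1 held ATTGG starting 83 bases and CCAAT starting 53 bases before the start, and Scd3 held neither. On 1 or the other strand, 33.8% of the 32851 upstream stretches of this length in the table held this motif. The E-box CACGTG and the nuclear receptor site AGGTCA (reverse TGACCT) were found in neither sequence, against 6.02% and 14% of all stretches. No match overlapped another.

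Signals of all measured genes but Mc5r were above the median of the array on all 33 arrays. Across the 6 phases of the natural cycle all 7 genes changed (F test of limma, a linear model across all probe sets), as 72.6% of all 26988 kept probe sets did. Across the 5 time points after depilation only Acsbg1 passed this test (adjusted p = 0.0354), where 10.2% of all probe sets did, while Fa2h was at adjusted p = 0.0527, Cidea at 0.0922 and Elovl3 at 0.0934. Without a single array the call for Acsbg1 was lost in 8 of 10 cases, with adjusted p between 0.0506 and 0.144.

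**Figure D1:**
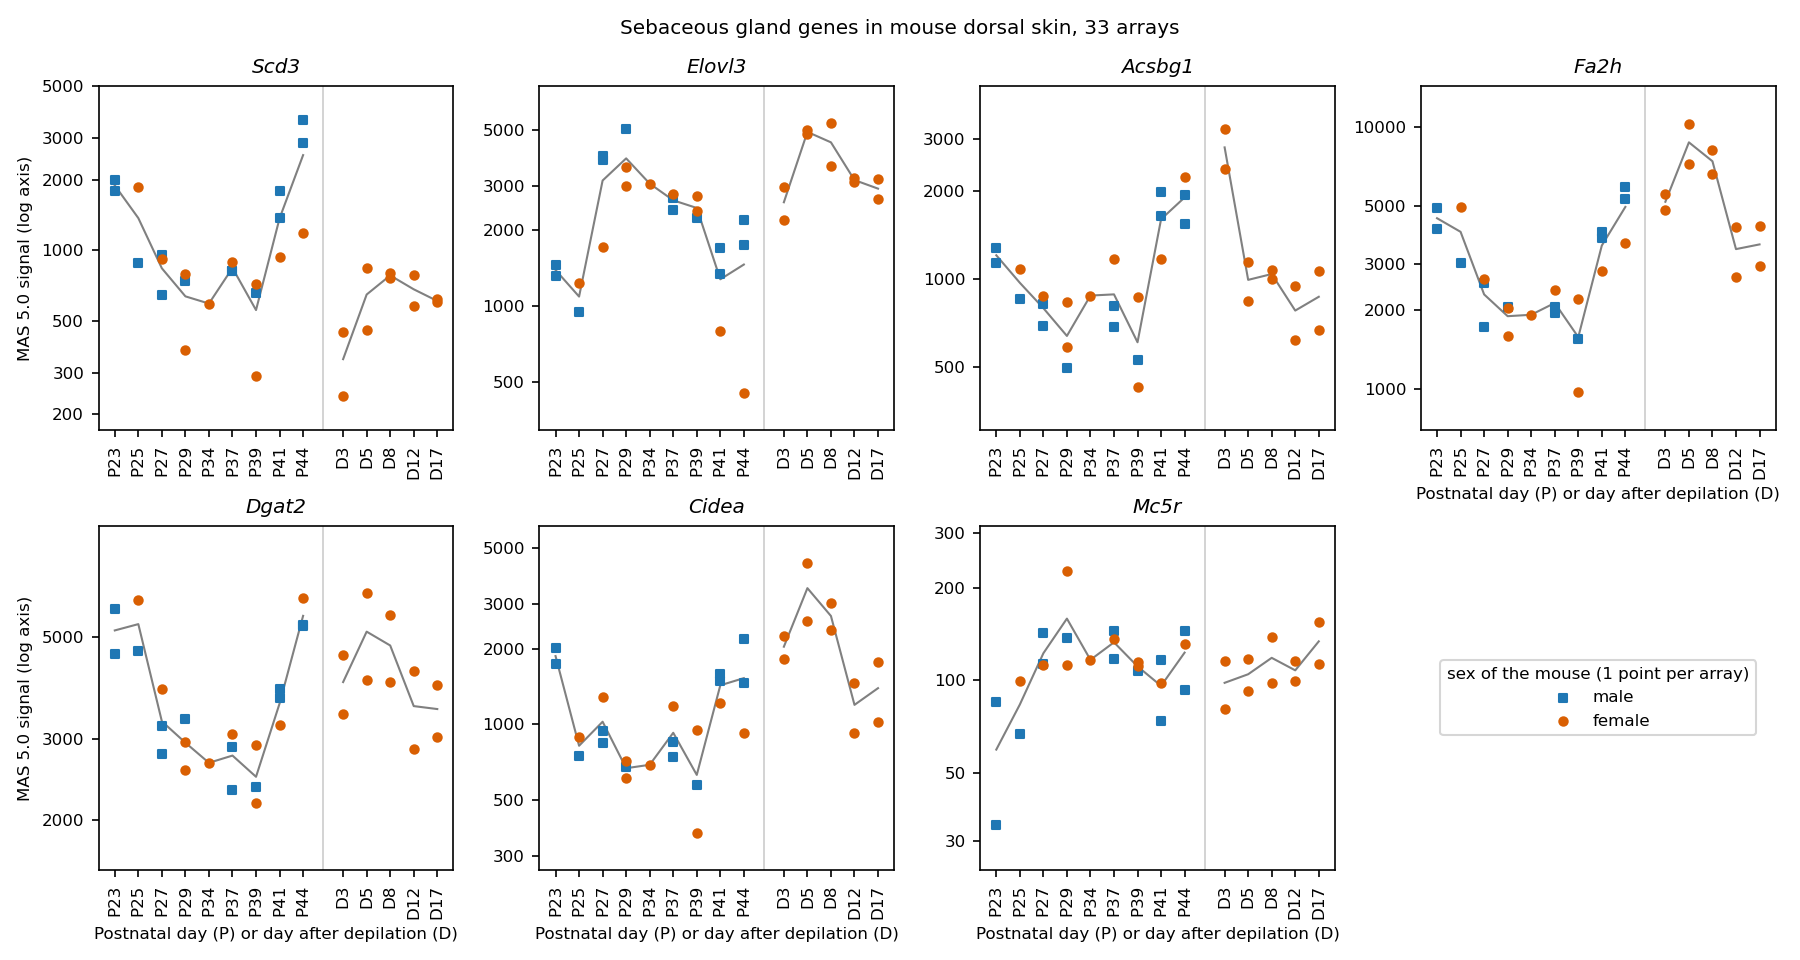
Signal of the 7 measured sebaceous gland genes on each of the 33 arrays (log axis), by postnatal day on the left and by day after depilation on the right of the grey line. Squares are male and circles female mice, and lines join the means. In 5 genes every P41 array is above all P37 and P39 arrays, Elovl3 runs the other way, and Mc5r stays between 33.9 and 227. Such separation was not counted over all probe sets.

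Scd3, a stearoyl-CoA desaturase found in the sebaceous gland, makes monounsaturated fatty acids. Its signal was 1789 and 1988 at P23 and 1863 and 877 at P25, 954, 642 and 913 at P27 and 735, 794 and 376 at P29, and was 591.5 at P34. It was 886, 817 and 816 at P37, 717, 289 and 659 at P39, 934, 1369 and 1796 at P41 and 1185, 3583 and 2863 at P44. Every array at P41 and P44 lay above every array from P37 and P39, and the female mouse was the lowest at both days. After depilation it was 239 and 446 at D3, 455.5 and 837.5 at D5, 762 and 798 at D8, 781 and 579.9 at D12 and 598 and 616 at D17. The mean of D3 was the lowest of all 14 time points and that of P44 the highest, 7.43 times as high. Most neighbours in this order of time points overlapped, and 2 of 13 pairs did not, P41 above P37 and D17 above the 1 array of P34.

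Elovl3 lengthens saturated and monounsaturated fatty acids to very long chains. Its signal was 1324 and 1460.5 at P23 and 1240.1 and 946 at P25, then 3783, 3943 and 1725 at P27 and 5025, 2992 and 3548 at P29, with 3062 at P34. It was 2797, 2400.4 and 2691.5 at P37 and 2387, 2725 and 2245 at P39, and 799, 1344 and 1695 at P41 and 453, 2189 and 1750.4 at P44. Of the 13 arrays from P27 to P39, 12 were above the highest array of P41 and P44, the female mouse of P27 being the exception. After depilation it was 2207 and 2959.5 at D3, 4982 and 4833 at D5, 5328 and 3595 at D8, 3212 and 3114 at D12 and 3180.5 and 2669.8 at D17. D5 had the highest mean and P25 the lowest, a ratio of 4.49, and P39 above P44 was the single pair of neighbours in the order that did not overlap.

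Acsbg1 activates long-chain fatty acids by joining them to coenzyme A. It was 1275 and 1133 at P23, 1084 and 856 at P25, 691, 822 and 871 at P27, 498, 833 and 585 at P29 and 877 at P34. It was 1167, 806 and 684 at P37, 866.5, 426 and 530.1 at P39, 1173, 1645 and 1979 at P41 and 2226, 1534 and 1931 at P44. Levels were thus lowest in late anagen and early catagen and highest in telogen within the natural cycle. After depilation the gene was at 2369 and 3255 at D3, above every array of the natural cycle, and at 1143 and 842 at D5, 1002 and 1076 at D8, 616.5 and 943 at D12 and 1067 and 671 at D17. D3 and P44, and P23 and D8, were the 2 pairs of neighbours in its order that did not overlap.

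Fa2h adds a hydroxyl group to fatty acids for the sphingolipids of sebum, epidermis and myelin. It was 4060.5 and 4895 at P23, 4935.5 and 3008 at P25, 1723, 2530.3 and 2616 at P27, 2047, 2039.6 and 1584 at P29 and 1914 at P34. It was 2374, 2052 and 1944 at P37, 2197, 971 and 1549 at P39, 2813, 3775 and 3975.5 at P41 and 3601, 5915.5 and 5325 at P44. The lowest array of all was P39 replicate 2. After depilation Fa2h was 4821.5 and 5531 at D3, 10243 and 7222 at D5, 8196 and 6591.5 at D8, 2676 and 4148 at D12 and 4179.9 and 2932 at D17. Both arrays of D5 and both of D8 were higher than any of the 23 natural arrays, and both arrays of D12 lower than those of D3.

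Dgat2 catalyses the last step of triglyceride synthesis. It moved least of the 6 lipid genes, with a ratio of 2.24 between the highest and the lowest mean of a time point, and no pair of neighbours in its order was free of overlap. It was 5754 and 4604 at P23, 6029 and 4662 at P25, 2784, 3201 and 3856 at P27, 3315, 2568 and 2957 at P29 and 2664 at P34. It was 3078, 2890.5 and 2318.5 at P37, 2916, 2177 and 2356 at P39, 3220.1, 3859 and 3682 at P41 and 6103.5, 5292 and 5322 at P44. High values thus stood at P23, P25 and P44 and low ones from P27 to P39. After depilation it was 4587.5 and 3404 at D3, 4039 and 6255 at D5, 5603 and 4000.5 at D8, 2851 and 4232 at D12 and 3945 and 3033 at D17.

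Cidea coats lipid droplets and helps them fuse, and is also a well-known gene of brown fat. It was 2003 and 1733 at P23, 894 and 752 at P25, 843, 945 and 1287 at P27, 676, 719 and 615 at P29 and 692 at P34. It was 1180.3, 855 and 744.5 at P37, 947.5, 370.3 and 574 at P39, 1219, 1584 and 1487 at P41 and 924, 2193 and 1463 at P44. Both arrays of P23 lay above both of P25, although both days count as early anagen. After depilation it was 1820.5 and 2249.6 at D3, 4387 and 2563 at D5, 3021 and 2368 at D8, 927.5 and 1464 at D12 and 1763.5 and 1023 at D17, so that the pairs of D5 and D8 were above every natural array.

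Mc5r, the melanocortin receptor that drives sebum secretion in the mouse, gave weak signals. It was above the median of the array on 9 of 33 arrays and under the floor on 1 (P23 replicate 2, 33.9). Its lowest and highest signals were 33.9 and 227 (P29 replicate 3), and the means of the time points ran from 59.55 at P23 to 158.5 at P29. Where early anagen enters a comparison, its difference is only a bound. No comparison of 2 phases or time points called Mc5r, although its F test across the natural phases passed (adjusted p = 0.0147, and 0.0606 after quantile normalization).

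Early anagen was set against the telogen of P44, whose mice were older than those of P23 and P25. Of the 7 genes 1 was lower in early anagen and 0 were higher, where 26.8% of all probe sets passed the test (limma, adjusted p under 0.05). Acsbg1 was 1897 ± 347 (SD, n = 3) in telogen and 1087 ± 174 (n = 4) in early anagen, a log2 difference of -0.80 ± 0.18 (adjusted p = 0.0189), where ± gives the standard error and p was adjusted over all kept probe sets by the method of Benjamini and Hochberg. The groups did not overlap, yet the call was lost without P44 replicate 1 (-0.68) and without P44 replicate 3 (-0.78). Fa2h differed by -0.22 ± 0.24 (adjusted p = 0.522) and Dgat2 by -0.09 ± 0.14 (adjusted p = 0.669), with 95% intervals of -0.79 to 0.34 and -0.42 to 0.24. The difference of Scd3 was -0.57 ± 0.44 (adjusted p = 0.374) and was -1.04 without P44 replicate 1 (adjusted p = 0.0848).

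From early to mid anagen, 1 gene rose and 2 fell, where 19.7% of all probe sets passed. Elovl3 rose from 1243 ± 218 (SD, n = 4) to 3150.0 ± 1237 (n = 3), a log2 difference of 1.27 ± 0.31 (adjusted p = 0.0296). Fa2h fell from 4225 ± 906 to 2290 ± 493, a difference of -0.88 ± 0.23 (adjusted p = 0.0355), and Dgat2 from 5262 ± 736 to 3280 ± 540, a difference of -0.68 ± 0.16 (adjusted p = 0.0284). The groups of these 3 genes did not overlap, which was not counted over all probe sets. With P23 replicate 1, P25 replicate 1, P27 replicate 1 or P27 replicate 2 left out none of the 7 genes passed. How many of all probe sets passed in these refits is not given here. Scd3 (log2 difference -0.91 ± 0.31, adjusted p = 0.0744) and Acsbg1 (-0.44 ± 0.17, adjusted p = 0.0962) had values in the same direction as Fa2h and did not pass. Both passed as lower when each array was centred on its median (-1.08 and -0.61), which gave 1 gene higher and 4 lower. Centring also moved all probe sets, from 2818 higher and 2502 lower to 2297 and 4584. Their median log2 difference went from -0.01 to -0.18. The second probe set of Dgat2 gave -0.59 (adjusted p = 0.0887), and its arrays overlapped between P25 and P27.

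From mid to late anagen and from late anagen to early catagen no gene passed limma's test, as none of the 26988 probe sets did (0%). At an unadjusted p under 0.05 there was 1 gene of 7 in each step, where 19.7% and 13.3% of all probe sets were. Cidea had a log2 difference of -0.59 ± 0.18 (adjusted p = 0.186) from mid to late anagen, and Elovl3 one of -0.57 ± 0.16 (adjusted p = 0.229) from late anagen to early catagen, and neither pair of groups overlapped. The methods' t-test (their analysis of variance of a pair of phases, run here on floored log2 signals and not on the study's transformed values) called 0 genes in the first step and 1 in the second at an unadjusted threshold of 0.01.

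Among successive phases, most calls lay within catagen, in the step where the share of all probe sets that passed was also the largest. Between P37 and P39 on one side and P41 on the other, 5 of the 7 genes rose and 1 fell, where 35.3% of all probe sets passed. In each of the 6 the groups did not overlap, which was not counted over all probe sets. Acsbg1 rose from 747 ± 264 (SD, n = 6) to 1599 ± 405 (n = 3), a log2 difference of 1.14 ± 0.30 (adjusted p = 0.0176), and Fa2h from 1848 ± 512 to 3521 ± 621, by 0.97 ± 0.27 (adjusted p = 0.0209). Scd3 rose by 1.01 ± 0.35 (adjusted p = 0.0499), Cidea by 0.96 ± 0.32 (adjusted p = 0.0413) and Dgat2 by 0.46 ± 0.14 (adjusted p = 0.0294). Elovl3 fell from 2541 ± 225 to 1279 ± 452, a difference of -1.05 ± 0.21 (adjusted p = 0.00482). The count of genes was 1, Elovl3, without P41 replicate 2 and likewise without P41 replicate 3, and 3 without P37 replicate 3 or P39 replicate 3. It stayed at 6 without P39 replicate 2, the array that stood apart, where Scd3 differed by 0.77 (adjusted p = 0.0233). The share of all probe sets that passed with these arrays left out is not given here. The call for Scd3 lay at the threshold, and was lost after quantile normalization (0.99, adjusted p = 0.0541) and without any of 6 other single arrays, with adjusted p up to 0.186. The second probe set of Dgat2 gave 0.33 (adjusted p = 0.0597), with overlapping groups.

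From mid catagen to telogen 1 gene rose, where 5.88% of all probe sets passed. Dgat2 went from 3587 ± 330 to 5572 ± 460.1 (SD, n = 3 each), a log2 difference of 0.64 ± 0.13 (adjusted p = 0.0439), and the call was lost with any of the 6 arrays left out (0.56 to 0.69) and with the second probe set (0.62). Scd3 differed by 0.80 ± 0.46 (adjusted p = 0.328) in the same step, with arrays of both phases interleaved.

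**Figure D2:**
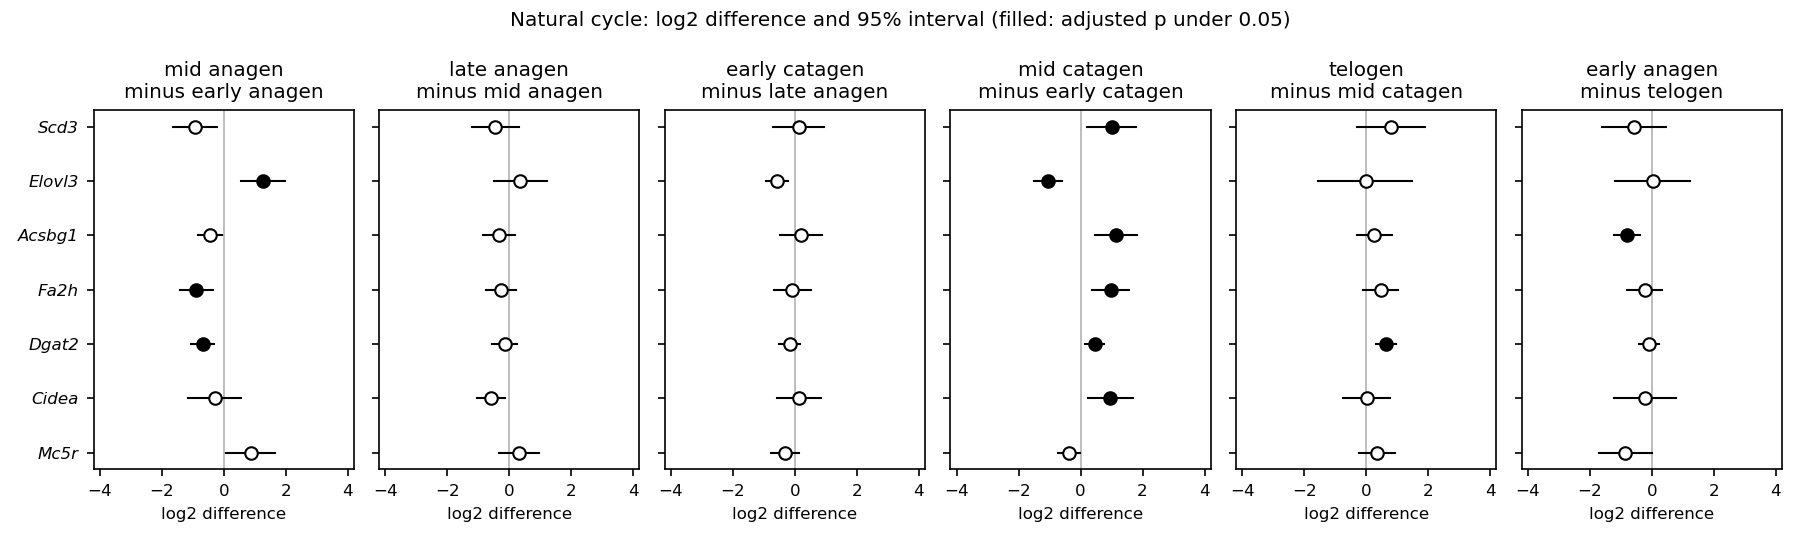
Log2 differences of the 7 genes between successive phases of the natural cycle, with 95% intervals (limma). Early anagen minus telogen sets P23 and P25 against the older P44 mice, so it is not a step forward in age. Filled points passed at an adjusted p under 0.05, and most of them stand in the step from early to mid catagen, where 5 genes rose and Elovl3 fell. Of the steps shown, this one also had the largest share of all probe sets past the test (35.3%).

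Telogen was then set against late anagen, the phases after and before regression. Of the 7 genes 5 were higher in telogen and 0 lower, where 44.6% of all probe sets passed. Scd3 was higher by 1.93 ± 0.47 (adjusted p = 0.0163), Acsbg1 by 1.59 ± 0.24 (adjusted p = 0.00229), Fa2h by 1.37 ± 0.22 (adjusted p = 0.00332), Cidea by 1.10 ± 0.30 (adjusted p = 0.0248) and Dgat2 by 0.92 ± 0.15 (adjusted p = 0.00305) on the log2 scale. Elovl3 had a log2 difference of -1.65 ± 0.59 (adjusted p = 0.0586) and just missed the threshold, with non-overlapping groups. Without P44 replicate 1 it became -0.94 and passed (adjusted p = 0.032), as it did with arrays centred on their medians (-1.68, 5 genes higher and 1 lower) and when all 33 arrays were fitted together (-1.65, adjusted p = 0.00188), and Scd3 became 2.41 (adjusted p = 0.00468). Without P29 replicate 3 or P44 replicate 3 the count was 3, with Scd3 and Cidea lost. The share of all probe sets that passed in these refits is not given here.

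Markers of other tissues were counted over the same step, where 35.3% of all probe sets passed. From early to mid catagen 8 of 10 skeletal muscle genes, 8 of 10 leukocyte genes, 5 of 13 white fat genes, 5 of 8 brown fat genes and 2 of 6 Schwann cell genes rose, while 8 of 10 hair shaft genes and 1 of 11 cornified epidermis genes fell. The summed signal of white fat markers was 71935 to 96460 at P37 and P39, 98904 to 103768 at P41 and 119515 to 147428 at P44, against 79232 to 104506 at P29. That of 7 Schwann cell and myelin markers (myelin also uses Fa2h) was 6365 to 8725 in early catagen, 13972 to 14176 at P41 and 15914 to 19957 at P44. That of 12 cornified epidermis markers was 57098 to 61694 at P29, 39969 to 92419 at P37 and P39, 91885 to 108624 at P41 and 118546 to 146554 at P44. The 11 brown fat markers summed to 2984 to 4498 at P37 and P39, 8029 to 8717 at P41 and 12762 to 16289 at P44, the direction of Cidea, with Cox8b (1.44 ± 0.17), Cox7a1 (1.46 ± 0.19) and Fabp3 (1.37 ± 0.27) among those that rose from early to mid catagen. Dio2 (-0.22 ± 0.21), Prdm16 (-0.22 ± 0.30) and Ppargc1a (0.21 ± 0.20) of the same list did not pass. Ucp1, the defining gene of brown fat, was under the floor on 30 of 33 arrays. Skeletal muscle markers ran the same way as the brown fat sum. They summed to 108184 to 135732 at P37, 93350 to 126921 at P39, 175978 to 189918 at P41 and 261251 to 290022 at P44. Cox8b and Cox7a1 were highest on D3 replicate 1, as the muscle genes Ckm and Des were. Whether the rises of Cox8b, Cox7a1 and Fabp3 came from fat or from muscle was not tested. Inner root sheath markers summed to 207073 to 237419 at P37, 211276 to 260376 at P39, 113946 to 138310 at P41 and 4753 to 9290 at P44. From early to mid catagen this was the direction of Elovl3. Sebocyte markers summed to 45868 to 57970 at P37, 40572 to 49448 at P39, 59329 to 65368 at P41 and 80873 to 82947 at P44. Scd1, Fasn, Pparg, Plin2 and Cidec of the sebocyte list are also used by fat cells. The part of these tissues in the changes of the sebaceous genes was not tested.

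**Figure D3:**
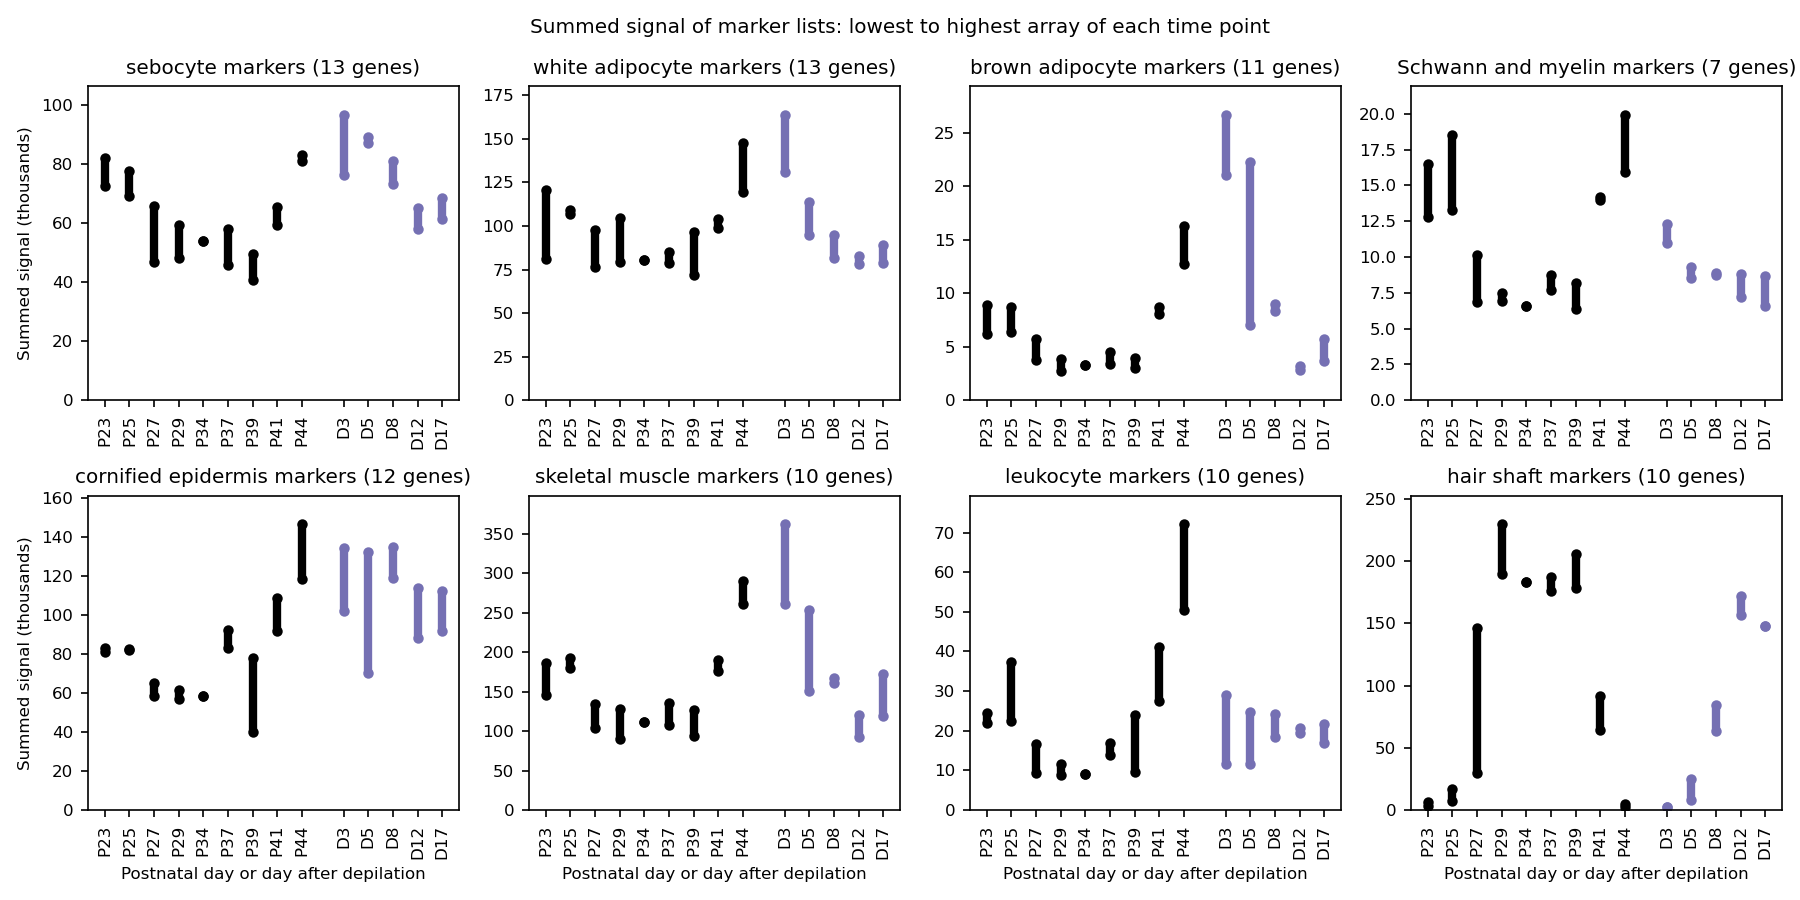
Summed signal of 8 marker lists at each time point, drawn from the lowest to the highest array (black natural cycle, violet after depilation, a single dot at P34). Hair shaft markers are high from P29 to P39 while the muscle, fat, leukocyte and sebocyte lists run low, and the sebocyte list is above its natural mid and late anagen range at D5 and D8.

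Of 44 genes of sebum lipid synthesis 35 were measured, and from early to mid catagen 9 rose and 9 fell, where 35.3% of all probe sets passed, with a median log2 difference of -0.09 against -0.01 over all probe sets. Those with the largest rises were Acacb, an acetyl-CoA carboxylase of mitochondria (1.56 ± 0.43, adjusted p = 0.0204), and Lpin1, a phosphatidic acid phosphatase (1.35 ± 0.14, adjusted p = 3.21e-04), and those with the largest falls Scd2, a desaturase (-1.61 ± 0.20, adjusted p = 6.35e-04), and Fads2, a desaturase of polyunsaturated fatty acids (-1.24 ± 0.25, adjusted p = 0.00578). In telogen against late anagen 12 were higher and 9 lower, where 44.6% of all probe sets passed (median 0.08 against -0.01), led by Far2 (2.20 ± 0.37, adjusted p = 0.00394) and Acacb (2.08 ± 0.26, adjusted p = 0.00121) above and by Fads3 (-3.02 ± 0.16, adjusted p = 8.73e-05) and Fads2 (-2.44 ± 0.17, adjusted p = 1.85e-04) below. Of 14 measured genes of lipid droplets and lipases, 9 rose and 1 fell from early to mid catagen (median 0.46), with Plin5 (1.82 ± 0.24, adjusted p = 9.15e-04) and Cidec (1.49 ± 0.21, adjusted p = 0.00117), both droplet coat genes, rising most. Abhd5, a lipase co-activator, was the one that fell (-0.33 ± 0.11, adjusted p = 0.0444). Muscle and fat markers also rose in this step, as given above, and their part in these lists was not tested.

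Desaturase genes split within the family. Scd1, the main skin desaturase, rose from early to mid catagen by 0.72 ± 0.20 (adjusted p = 0.0226) and was higher in telogen than in late anagen by 0.81 ± 0.18 (adjusted p = 0.0111), the direction of Scd3. Scd2 fell in the first, as given above, and was lower in the second, with -1.66 ± 0.22 (adjusted p = 0.00161). Its signal was 3392, 2925 and 2425 at P41 and 2814, 3229 and 2624 at P44, and from 6654 to 12130 on all arrays from P27 to P39. Scd4 lacked a probe set of its own symbol alone. Close copies of a gene can share probes, which was not tested, and the second probe set of Scd3 gave 0.72 from early to mid catagen, not past the test, and 1.70 for telogen against late anagen, not past the test.

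Among 24 measured regulators and receptors of the gland, 5 rose and 3 fell from early to mid catagen, and 8 were higher and 6 lower in telogen than in late anagen (medians 0.27 and 0.48), where 35.3% and 44.6% of all probe sets passed. Cebpa, a transcription factor of sebocyte and fat cell maturation, rose by 0.56 ± 0.12 (adjusted p = 0.00652), and Mrap, an accessory protein of melanocortin receptors, by 1.43 ± 0.17 (adjusted p = 5.80e-04). Mc1r, the pigment cell relative of Mc5r, fell (adjusted p = 9.52e-04), from a range of 99.4 to 268 in early catagen to 31.2, 12.7 and 34.9 at P41, and its log2 difference of -2.28 is only a bound, since 2 of these 3 values were under the floor. Pomc, whose product is cut into the melanocortin hormones, stayed between 32.1 and 223 on all arrays. Lef1, a WNT effector of the hair matrix, fell most (-3.00 ± 0.26, adjusted p = 1.34e-04).

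Scd3 was lower at D3 than in natural telogen, with a log2 difference of -2.82 ± 0.46 (adjusted p = 1.03e-04), and lower than in natural early anagen, with -2.25 ± 0.43 (adjusted p = 2.60e-04) and no overlap in either. At D3 it was the only one of the 7 genes called against telogen, where 33.1% of all probe sets passed, and with median centring Elovl3 also passed, as higher (1.21). That centring moved the median log2 difference of all probe sets from -0.08 to 0.05. For Scd3 the following refits were made. Without P44 replicate 1 the difference was -3.29. With female arrays only, a choice made after the values had been seen, it was -1.86 and did not pass, but telogen then rests on 1 array, that same P44 replicate 1. Acsbg1 was higher at D3 than in early anagen by 1.37 ± 0.29 (adjusted p = 6.91e-04), so that 1 gene was higher and 1 lower in this comparison, where 44.6% of all probe sets passed. With female arrays only, which leave 1 array of early anagen, Acsbg1 differed by 1.36. Acsbg1 against telogen gave 0.57 ± 0.31 (adjusted p = 0.165). Hair shaft markers summed to 2114 to 2156 at D3, 2414 to 4996 at P44, 3165 to 6232 at P23 and 7541 to 16638 at P25. Inner root sheath markers summed to 3187 to 4017 at D3, 4753 to 9290 at P44, 30952 to 57081 at P23 and 30911 to 81502 at P25. By these markers D3 was closer to natural telogen than to natural early anagen. The part of follicle stage in these differences was not tested.

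At D5, 3 genes were higher than in natural mid anagen and 0 lower, where 23.6% of all probe sets passed. Fa2h was 8732 ± 2136 (SD, n = 2) against 2290 ± 493 (n = 3), a log2 difference of 1.93 ± 0.31 (adjusted p = 1.85e-04), and Cidea 3475 ± 1290 against 1025 ± 233, a difference of 1.73 ± 0.36 (adjusted p = 0.0016). Dgat2 differed by 0.63 ± 0.23 (adjusted p = 0.0475), a call lost without D5 replicate 2 (0.31), P27 replicate 1 (0.52) or P27 replicate 2 (0.62). With female arrays only, which leave a single P27 mouse, 1 gene passed, and Fa2h (1.72) and Cidea (1.38) did not while Elovl3 did (1.51). Cidea also lost its call without D5 replicate 1 (1.35).

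D8 and D12 together were higher than late anagen in 2 genes, where 26.5% of all probe sets passed, Fa2h by 1.40 ± 0.26 (adjusted p = 4.02e-04) and Cidea by 1.40 ± 0.30 (adjusted p = 0.00158). The 2 days were unlike each other, since Fa2h was 8196 and 6591.5 at D8 and 2676 and 4148 at D12, and with D12 alone neither gene passed (0.83 and 0.80). Hair shaft markers summed to 63655 to 84050 at D8 and 156386 to 172327 at D12, against 189961 to 229589 at P29. The part of follicle stage in these differences was not tested. At D17, 1 gene, Fa2h, was higher than in early catagen, by 0.98 ± 0.27 (adjusted p = 0.0177), where 15.3% of all probe sets passed. This call was lost without D17 replicate 1 (0.72). Cidea differed by 0.88 ± 0.32 (adjusted p = 0.0666).

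**Figure D4:**
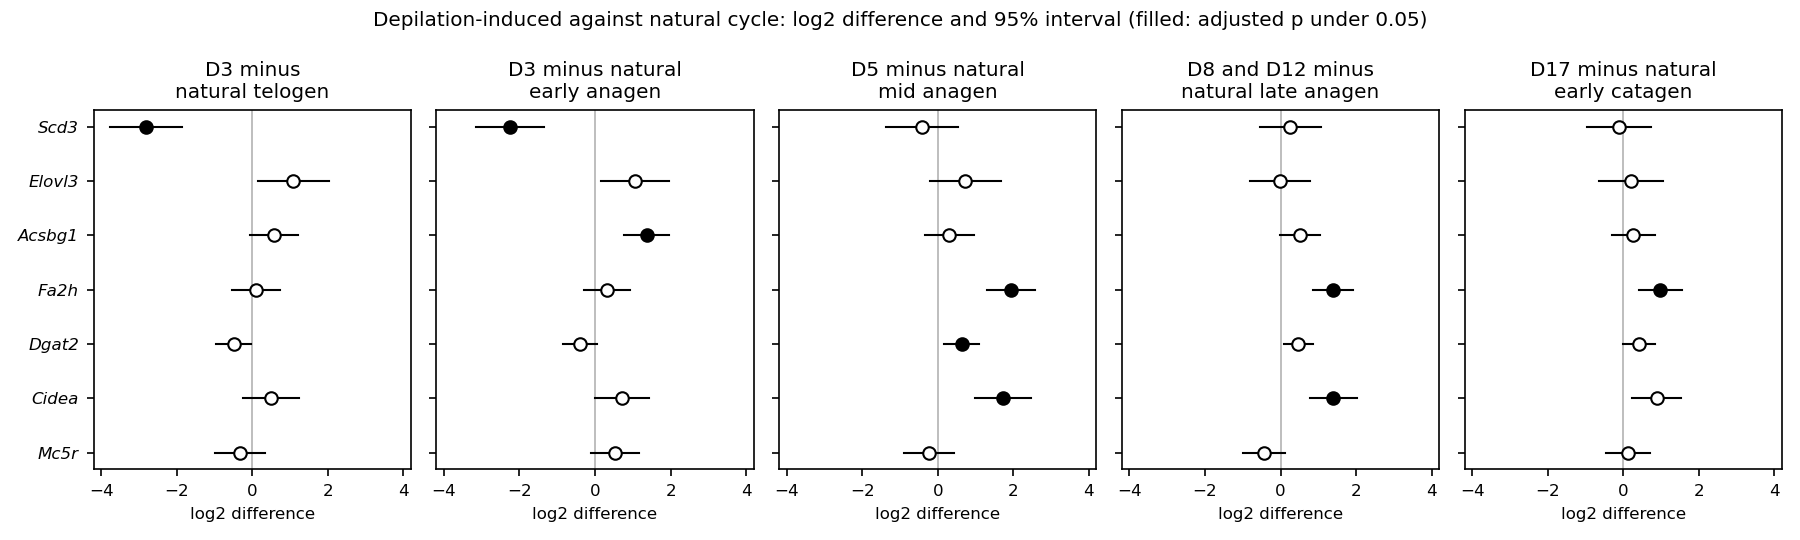
Log2 differences of the 7 genes between days after depilation and phases of the natural cycle, with 95% intervals (limma, joint fit of 33 arrays). Filled points passed at an adjusted p under 0.05. Scd3 stands far to the left at D3, and Fa2h and Cidea to the right at D5 and at D8 with D12.

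Within the 10 depilated mice no step passed the test for any of the 7 genes, where 1.69% of probe sets passed from D3 to D5, 0.0963% from D5 to D8 with D12 and 0% from there to D17 (limma). At an unadjusted p under 0.05 the counts were 3, 0 and 0 of 7 genes, against 17.5%, 13.3% and 1.89% of all probe sets. From D3 to D5, Acsbg1 had a log2 difference of -1.50 ± 0.33 (adjusted p = 0.0662), which passed when all 33 arrays were fitted together (-1.50, adjusted p = 0.00774), and Elovl3 differed by 0.94 ± 0.28 (adjusted p = 0.133) and Scd3 by 0.92 ± 0.35 (adjusted p = 0.232) in the same step.

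The change over the growth phase, from early to late anagen, was compared between the cycles as a difference of differences. It passed for 2 of the 7 genes, where 18.2% of all probe sets did. Scd3 had a log2 difference of -1.36 in the natural cycle (P23 and P25 to P29) and of 1.15 after depilation (D3 to D8 and D12), a difference of -2.51 ± 0.58 (adjusted p = 0.00522). Dgat2 had -0.83 and 0.04, a difference of -0.87 ± 0.29 (adjusted p = 0.0381). The call for Scd3 was lost without D3 replicate 1 (-2.06), and that for Dgat2 without any of 7 single arrays, among them D3 replicate 2 (-0.66) and D12 replicate 2 (-0.73). Fa2h gave -1.08 ± 0.39 (adjusted p = 0.0544). The intervals differed in follicle stage at both ends. Inner root sheath markers summed to 3187 to 4017 at D3, against 30952 to 57081 at P23 and 30911 to 81502 at P25. Hair shaft markers summed to 63655 to 84050 at D8 and 156386 to 172327 at D12, against 189961 to 229589 at P29. The part of stage was not tested, and depilation, sex and age cannot be told apart here. The same comparison for the entry into catagen, D17 against D8 and D12 set beside P37 and P39 against P29, called 0 of the 7 genes and 0% of probe sets, with 0 genes and 4.37% of probe sets at an unadjusted p under 0.05.

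Of the 35 measured genes of sebum lipid synthesis 17 were higher and 2 lower at D5 than in mid anagen, where 23.6% of all probe sets passed (median 0.50 against -0.06 over all probe sets), with Far2 (1.64 ± 0.43, adjusted p = 0.0087) and Acacb (1.64 ± 0.39, adjusted p = 0.00411) highest and Fads3 (-1.71 ± 0.31, adjusted p = 5.62e-04) and Acsl3, an acyl-CoA synthetase (-0.82 ± 0.17, adjusted p = 0.00165), the ones that were lower. Pparg, the nuclear receptor that directs sebocyte maturation, was higher by 1.30 ± 0.38 (adjusted p = 0.0171), Srebf1, which switches on fatty acid synthesis, by 1.34 ± 0.20 (adjusted p = 1.28e-04) and Cebpa by 0.83 ± 0.17 (adjusted p = 0.00182). These regulators were picked after their values had been seen. The rest of the regulator list is not given here for this comparison, so they do not stand for it. Of 12 sebocyte markers 7 were higher and 0 lower, and their summed signal was 87020 to 89019 at D5 against 46907 to 65744 at P27. White fat markers summed to 94743 to 113746 against 76651 to 97737, brown fat markers to 7044 to 22249 against 3791 to 5717, cornified epidermis markers to 70038 to 132244 against 58448 to 65167 and skeletal muscle markers to 150632 to 253160 against 103902 to 134603. Hair markers ran lower at D5, hair shaft with 8154 to 25288 against 29878 to 146417 and inner root sheath with 43480 to 91507 against 113170 to 163800. The part of these tissues and of follicle stage in the result was not tested.

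Beside the members, the genes most like each over the means of the 14 time points (12852 other genes, Pearson's r) were the following, given as a description without a test. Fa2h was most like Cebpa (r = 0.982), Mgll, a monoglyceride lipase (0.98), and Aadac (0.976), and Cidea like Mgll (0.944), Pank1 (0.94) and Tmem109 (0.938). Scd3 was most like Niban1 (0.959), Dnajb14 (0.95) and Septin8 (0.95), Acsbg1 like Stap2 (0.959), Il34 (0.957) and Slc2a12 (0.954), and Dgat2 like Tbc1d20 (0.968), Mocs2 (0.967) and Sptssa (0.956). Elovl3 was most like Epgn (0.929), Mtf2 (0.928) and Snrpd3 (0.912). For Mc5r the highest were lower, Pomt2 (0.854), Tmem192 (0.843) and Gm9112 (0.834). Between the members r ran from -0.73 for Elovl3 with Scd3 to 0.94 for Cidea with Fa2h, and the time points share the scaling of the arrays.

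Sex was compared within the natural cycle because single female arrays were low in Scd3 and Elovl3, a comparison chosen after these values had been seen. With 1 mean per time point, 13 male and 10 female arrays, none of the 7 genes passed, where 0.5% of all probe sets did (limma), and 1 gene had an unadjusted p under 0.05, as 10.5% of all probe sets had. Elovl3 was higher in males by 0.62 ± 0.22 on the log2 scale (95% interval 0.16 to 1.08, unadjusted p = 0.0114, adjusted p = 0.302) and higher in males on 4 of the 7 days that had both sexes. For Scd3 the difference was 0.29 ± 0.24 (adjusted p = 0.733). At P44 Elovl3 was 453 in the female mouse and 1750.4 and 2189 in the males, and at P27 1725 in the female and 3783 and 3943 in the males, whereas at P39 the females held 2387 and 2725 and the male 2245.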

How the data were processed

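Skin RNA of 1 mouse was hybridised to each of 33 Affymetrix mouse expression arrays. The authors deposited MAS 5.0 signal intensity values on a linear scale, scaled to a common mean on every array (trimmed means 496.8 to 498.4, medians 111.2 to 142.5); the software version was not given in the sources used here. Signals were floored at the 25th percentile of all values (34.6) and converted to log2, and a probe set was kept where 3 or more arrays gave a signal above that array's median (26988 of 45037). Differences were tested with limma 3.58.1 (R 4.3.3), with p-values adjusted after Benjamini and Hochberg and a threshold of 0.05. Comparisons within the natural cycle used only the arrays compared, those after depilation all 10 depilated arrays, and those between cycles all 33 arrays with 1 mean per time point; P34 entered late anagen only as an alternative. Of all probe sets 34945 carried 1 gene symbol, 932 several and 9160 none. The array number limits the precision. All 7 measured genes are named, and genes of the wider lists are those with the largest calls in either direction, with the close relatives of a member; Cebpa, Pparg and Srebf1 were added after their values had been seen. The members and lists were chosen with earlier results of these data known. The scripts were tested on simulated data with known changes.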

Additional observations from a re-analysis of the deposited data

Results flagged for a closer look

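In 3 of 21 groups of 4 to 6 arrays, 1 array lay far from the others by Dixon's criterion on log2 signals, which flags about 1 group in 20 by chance, and all 3 were Scd3. P25 replicate 2 (signal 877) was low among the 4 early anagen arrays, with a gap to its neighbour of 0.871 of the whole range. P39 replicate 2 (289) was low among the 6 early catagen arrays, with a gap of 0.736. D12 replicate 2 (579.9) was low among the 4 arrays of D8 and D12, with a gap of 0.854. On the linear signals the gaps were 0.821, 0.62 and 0.833, and 1 of the 3, that of D12 replicate 2, met the criterion.

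The change from early to late anagen differed between the cycles in a test of the difference itself for Scd3 (-2.51 on the log2 scale, natural minus depilation) and Dgat2 (-0.87). The call for Scd3 was lost without D3 replicate 1 (-2.06) and that for Dgat2 with D12 alone as late anagen (-0.65). The part of follicle stage was not tested, and depilation, sex and age cannot be told apart here.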

How the results depend on the processing

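The number of the 7 genes past the test is given for each alternative that moved it by more than 1.5 times. The share of all probe sets passing under each alternative, or with an array left out, is not given beside it. A count can therefore move along with all probe sets and is not a result about the 7 genes alone. Of the counts of genes 333 stayed within that range of 1.5 times and 95 did not, and of the values of single genes 2785 kept their direction and their side of the threshold, 166 lost the call, 64 gained it and 0 reversed. Early anagen against telogen (1 gene) gave 0 with median centring, P23 alone or P25 alone and 2 in the joint fit. Mid against early anagen (3) gave 0 without the filter, with P25 alone and with the methods' t-test after adjustment, 1 with that t-test unadjusted at 0.01 and with P23 alone, and 5 with median centring. Early catagen against late anagen (0) gave 1 with the unadjusted t-test. Mid against early catagen (6) gave 3 without the filter, 1 with the unadjusted t-test and 2 with P37 alone. Telogen against mid catagen (1) gave 0 without the filter, with median centring, sex as a covariate or the adjusted t-test. Telogen against late anagen (5) gave 3 without the filter and with either form of the t-test. D5 against D3 (0) gave 1 on log2(signal + 50), with a stricter filter and in the joint fit, and D8 and D12 against D5 (0) gave 1 with D12 alone. D3 against telogen (1) gave 2 with median centring or sex as a covariate and 0 with either t-test, and D3 against early anagen (2) gave 1 with the unadjusted t-test. D5 against mid anagen (3) gave 0 and 1 with the adjusted and unadjusted t-test and 1 with female arrays only. D8 and D12 against late anagen (2) gave 0 with either t-test and with D12 alone. D17 against early catagen (1) gave 2 with median centring or P39 alone and 0 in the fit of only the arrays compared, with either t-test, P37 alone or female arrays only. The growth-phase change by cycle (2) gave 1 without the filter and with P23, P25 or D12 alone or female arrays only. The F test after depilation (1) gave 2 on log2(signal + 50), with a stricter filter, quantile normalization or 1 probe set per gene, 3 in the joint fit and 0 without the filter. The cause of these moves was not tested.

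With single arrays left out the counts ran from 0 to 1 for early anagen against telogen, 0 to 4 for mid against early anagen, 1 to 6 for mid against early catagen, 0 to 0 for telogen against mid catagen, 3 to 6 for telogen against late anagen, 0 to 1 for D5 against D3, 1 to 2 for D3 against telogen, 0 to 2 for D17 against early catagen, 1 to 3 for the growth-phase change and 0 to 2 for the F test after depilation. Replicate numbers did not pair the arrays (correlations of same-numbered arrays -0.26 to 0.39, median 0). With the replicate number as a replicate block, telogen against mid catagen gave 0 and the F test after depilation gave 0, and the other counts stayed within 1.5 times.

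Median centring moved the median of all log2 differences by -0.19 to 0.17, over 0.1 in 7 of 17 comparisons, and quantile normalization by -0.03 to 0.08. The comparison of female arrays and that of the sexes were chosen after seeing the data, and female arrays only leave 1 array in telogen, early anagen and mid anagen. The methods' t-test used floored log2 signals, not the study's transformed values. Groups of 2 or 3 arrays limit what a missed threshold can show, and Mc5r lay close to the floor.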
